A study of Arabidopsis thaliana with 26 samples.

Results

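The 126 probe sets described here had a lower level after 6 days of leaf darkening than in light in pif5 leaves, while their level at day 6 in Col-0 leaves was close to that in light. They were chosen from the 26676 rows of the array table by group means on the log2 scale. The change from light at day 6 had to be -1 or lower in pif5 and between -0.5 and 0.5 in Col-0, and up to 200 rows could have been kept. All rows that met these limits are included. The day 6 changes that chose them are given as a description, with no test.

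The leaves came from Arabidopsis thaliana plants with a knockout of PIF5 (pif5) and from the wild type, Col-0, both grown in short days. Single leaves were darkened under foil-coated covers on plants whose other leaves kept the day and night cycle, and leaf blades were taken at noon. For pif5 there were 3 arrays of leaves in light (day 0), 3 at each of days 1, 3 and 6 of darkening, and 2 at day 12. For Col-0 there were 3 arrays in light and 3 at each of days 1, 3 and 6, and no day 12 array was analysed here. The mutant is a single knockout allele, pif5-621, and each genotype has 1 set of light-grown leaves, taken as day 0. Changes from light therefore do not separate darkening from elapsed time or leaf age. Nothing in the labels ties the replicates to separate plants, and p-values therefore measure only a spread between samples that may be technical.

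Phytochrome-interacting factors are basic helix-loop-helix transcription factors that accumulate when light no longer activates the phytochromes, and PIF5 is among those known to promote leaf senescence in darkness. A single darkened leaf on an otherwise lit plant loses its photosynthetic supply, breaks down chlorophyll and protein, and exports nutrients to the rest of the plant. Genes in such a leaf can change within the first day, when light and sugar supply are lost, or later, as senescence proceeds.

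Rows are cited by their identifier and not by gene. The platform annotation lists 1 gene for 66 of the 126 rows, several genes for 4 and none for 56. Over the whole table it lists 1 gene for 16179 rows, several for 588 and none for 9909. No row could be matched to a ribosomal protein by updated symbol or synonym. The 8 rows named for photosystem or light-harvesting proteins, whose transcripts are abundant in leaves, had a median percentile of 56.8 in mean level and a mean pairwise correlation over arrays of -0.035. The names were thus not borne out by the values, so gene groups were not described and the leaf label was not checked through markers. No row is listed for PIF5, so the genotype labels were not checked through it.

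Within groups the arrays correlated at 0.981 to 0.991, and array medians ran from 4.20 to 4.33. In the plot of mean levels by array, the mean over the 126 rows was 6.95, 6.91 and 6.92 in the 3 pif5 arrays in light. It was 6.15, 6.12 and 6.17 after 1 day, 5.79, 5.87 and 5.85 after 3 days, and 5.54, 5.70 and 5.53 after 6 days. At day 12 the 2 pif5 arrays stood at 5.56 and 5.51. The Col-0 arrays had means of 6.83, 6.76 and 6.80 in light, 6.22, 6.16 and 6.22 after 1 day, 6.36, 6.26 and 6.29 after 3 days, and 6.61, 6.61 and 6.69 after 6 days. Thus in both genotypes the mean was lower after 1 dark day than in light in every array. It then went on downwards to day 6 in pif5 and was higher again in Col-0 at day 6. In whole leaves, fewer cells of a type and less RNA per cell cannot be told apart.

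**Figure D1:**
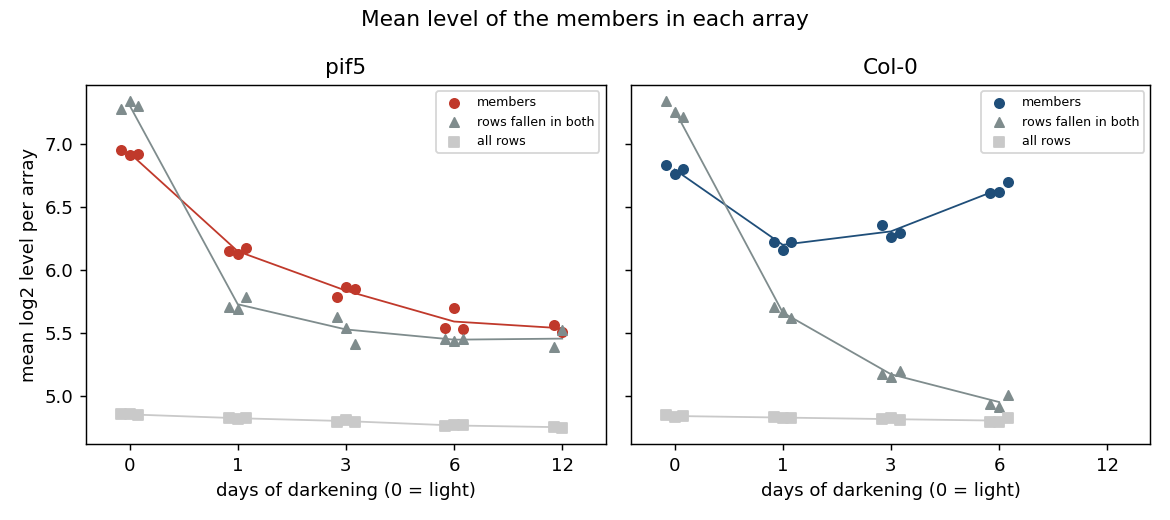
Mean log2 level (vertical axis) of the 126 rows in each array, against days of darkening at equal spacing (horizontal axis), for pif5 on the left and Col-0 on the right. Coloured circles are the 126 rows, triangles the 1659 rows that were lower by at least 1 at day 6 in both genotypes, squares all 26676 rows, and lines join group means. The circles go down to 5.51 to 5.56 at day 12 in pif5 and stand at 6.61 to 6.69 at day 6 in Col-0.

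Rows that were low at day 6 in pif5 and near their light level in Col-0 were a small share of the pif5 falls. Of 2045 rows with a day 6 change of -1 or lower in pif5, 1659 also had a change of -1 or lower in Col-0, 237 had a Col-0 change above -1 and up to -0.5, 126 are the rows described here, and 23 had a Col-0 change of 0.5 or higher. Among the 126, the pif5 change at day 6 ran from -3.71 to -1.001 with a median of -1.24. The Col-0 change at day 6 ran from -0.50 to 0.47 with a median of -0.21. The limits cut through a continuous range. The last rows inside the pif5 limit, 13339852, 13450519 and 13391187, had changes of -1.001, -1.003 and -1.004, and the first outside, 13364083, 13397798 and 13383933, had -0.995, -0.993 and -0.993. At the Col-0 limit the last rows inside, 13369782, 13482834 and 13541492, had changes of -0.4993, -0.4991 and -0.498, and the first outside, 13370202, 13403712 and 13398594, had -0.503, -0.508 and -0.510.

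Each row was tested with limma over all 26 arrays in 9 groups, and a call is a Benjamini-Hochberg adjusted p under 0.05 over all 26676 rows. The shares of all rows given beside the counts are not matched for level. In Col-0 light, 122 of the 126 rows lay above the median level of all rows. In pif5 104 of the 126 rows were called lower than in light at day 1 and 5 higher (18.4% and 16.7% of all rows). At day 3, 120 were lower and 0 higher (19.3% and 16.1% of all rows), and at day 12, 126 were lower and 0 higher (19.2% and 13.7%). These comparisons share the arrays in light with the rule and are a description.

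In Col-0, 67 of the 126 rows fell early and rose again by day 6. At day 1 or day 3, 94 of the 126 rows were called lower in Col-0 leaves than in light, and 67 of these were also called higher at day 6 than at their lowest earlier day. Recovery here means this called rise and not a full return to the light level. In all rows of the table, 3.74% fell and recovered by the same calls. For 27 rows the fall was called and the recovery was not, against 20.7% of all rows. A further 7 rows rose at day 1 or 3 without a called fall (26.9% of all rows), and 25 had no call at day 1 or 3 (48.7% of all rows). By day, Col-0 leaves were lower than in light at 86 of the 126 rows at day 1 and 73 at day 3 (18.8% and 22% of all rows), and higher at 6 and 4 (19.4% and 23.4%). Between days 1 and 6 in Col-0, 64 rows were higher and 8 lower (13.8% and 14.6% of all rows), and between days 3 and 6, 37 were higher and 1 lower (5.64% and 4.85%). At day 6, 30 of the 126 were called lower than in light in Col-0 and 5 higher (22.6% and 23.3% of all rows). The membership rule holds the Col-0 levels at days 0 and 6 close together and these calls use the same arrays, so the counts describe the rows and support nothing further. A missing call does not show that a row stayed level. The description of these rows as falling only in pif5 therefore holds for the size of the change at day 6 and not for the earlier days.

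Within the 67 rows that fell and recovered in Col-0, 47 were lowest at day 1 and 20 at day 3. The falls were called at day 1 in 63 rows and at day 3 in 49, and in 30 rows the Col-0 level was lower than in light by at least 1 at one of these days. A called fall at day 1 or 3 is part of how the class was defined, so these counts are a description. Median changes from light were -0.98 at day 1, -1.26 at day 3, -1.34 at day 6 and -1.34 at day 12 in pif5, and -0.87, -0.63 and -0.19 at days 1, 3 and 6 in Col-0. At day 1 the fall was called in 64 of these 67 rows in pif5 too, against 73.6% of all rows that fell and recovered in Col-0. The medians were thus below light on the first dark day in both genotypes. The called rise by day 6 in Col-0 is also part of how the class was defined. The low pif5 level at day 6 was required by the membership rule. The contrast between the day 6 medians was therefore set by the selection and is a description. The pif5 arrays of days 3 and 12 had no part in the selection, but their changes share the arrays in light with it.

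**Figure D2:**
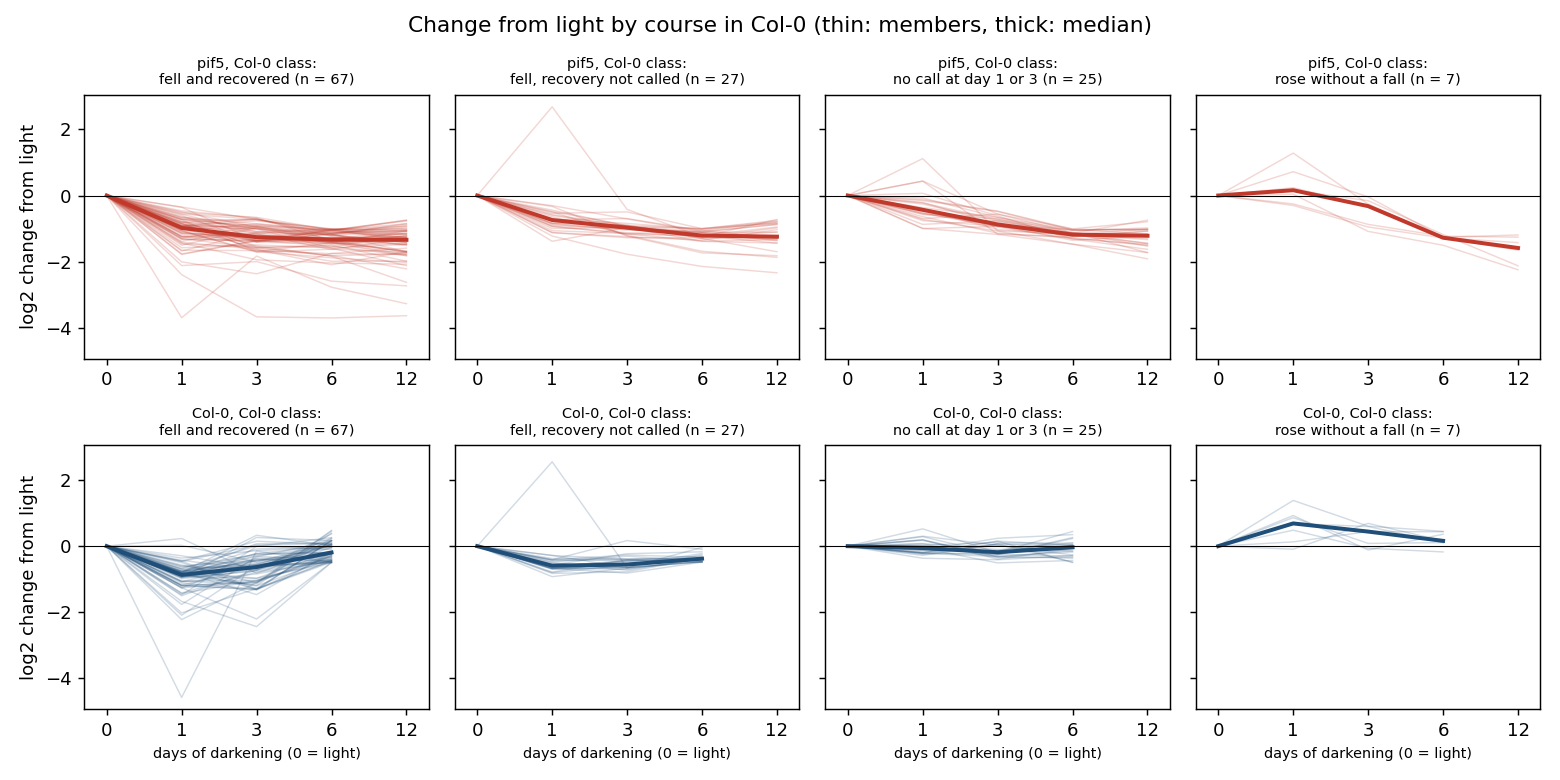
Change from light on the log2 scale (vertical axis) against days of darkening at equal spacing (horizontal axis), in pif5 (upper panels) and Col-0 (lower panels), split by the calls in Col-0. Thin lines are single rows and thick lines the median, with 67, 27, 25 and 7 rows per class from left to right; in the first class the median stands at -1.34 at day 6 in pif5 and at -0.19 in Col-0.

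Row 13482834 had the largest gap between the genotypes' day 6 changes. Its level in pif5 was 8.59, 8.65 and 8.66 in light, 6.37, 6.28 and 6.06 at day 1, 4.49, 5.09 and 5.30 at day 3, 4.79, 5.57 and 4.42 at day 6, with 5.75 and 4.24 at day 12. In Col-0 it was 8.37, 8.63 and 8.74 in light, 6.30, 6.45 and 6.72 at day 1, 7.98, 8.02 and 7.96 at day 3, then 7.87, 8.12 and 8.25 at day 6. The genotypes overlapped at day 1 and were far apart at day 3. The Col-0 change from light was -2.09 at day 1 and -0.60 at day 3. At day 3 the difference, pif5 minus Col-0, was -3.03 ± 0.26 (SE, limma adjusted p = 2.9e-09).

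The deepest early fall in Col-0 was that of row 13529816. In pif5 the values were 9.08, 9.18 and 8.76 in light, 5.10, 5.06 and 5.76 at day 1, 6.70, 7.17 and 7.65 at day 3, then 6.27, 6.79 and 5.63 at day 6. In Col-0 they were 8.62, 8.83 and 8.83 in light, 4.36, 4.06 and 4.12 at day 1, 8.55, 8.36 and 8.94 at day 3, then 8.25, 8.43 and 8.13 at day 6. The row recovered in part in pif5 as well, the only one of the 126 with a called rise from day 1 to day 3 there (1.87 ± 0.38, SE, limma adjusted p = 0.0019, against 4.43 ± 0.38 in Col-0, limma adjusted p = 1.2e-09). At day 12 the pif5 arrays stood at 4.38 and 7.08 and gave no firm level.

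Recovery came later in some rows. Row 13500637 had levels of 9.78, 9.43 and 9.83 in light, 7.64, 7.47 and 7.91 at day 1, 7.78, 7.47 and 6.68 at day 3, 7.73, 8.16 and 7.90 at day 6, with 8.02 and 8.16 at day 12 in pif5. In Col-0 they were 9.66, 9.13 and 9.21 in light, 7.99, 7.48 and 7.51 at day 1, 6.99, 6.88 and 6.82 at day 3, then 8.82, 8.82 and 8.89 at day 6. The 2 genotypes overlapped at day 1, and at day 6 every Col-0 array was above every pif5 array. The Col-0 return was partial, with every day 6 array below every Col-0 array in light. Row 13388200 had pif5 levels of 5.19, 4.52 and 4.55 in light, 3.48, 3.73 and 3.79 at day 1, 3.32, 3.66 and 3.81 at day 3, then 2.97, 3.11 and 3.27 at day 6. In Col-0 it was at 3.67, 3.33 and 3.72 at day 1 and 3.54, 3.51 and 3.44 at day 3, below its 4.63, 4.57 and 4.72 in light, and at 5.10, 5.29 and 4.90 at day 6. The genotypes overlapped at days 1 and 3 and were separate at day 6. Row 13352556 was lower in every Col-0 array than in every pif5 array at day 3 and higher at day 6. The day 3 difference, pif5 minus Col-0, was not called (0.79 ± 0.28, SE, limma adjusted p = 0.051). The row was at 5.10, 4.94 and 4.97 at day 3 and 4.09, 4.62 and 4.52 at day 6 in pif5, against 4.52, 4.0 and 4.11 at day 3 and 6.07, 5.35 and 6.35 at day 6 in Col-0.

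Row 13365646 was called lower at day 3 than at day 1 in both genotypes (limma adjusted p = 0.00016 in pif5 and 0.00028 in Col-0). It was at 5.89, 6.00 and 5.78 in pif5 and at 6.26, 6.46 and 5.85 in Col-0 at day 3, after 6.81, 6.89 and 6.86 in pif5 and 6.97, 6.90 and 7.18 in Col-0 at day 1. At day 6 pif5 had 5.46, 5.78 and 5.86, and Col-0 had 7.85, 7.39 and 7.86, close to its 7.72, 7.47 and 7.35 in light. Of the 20 rows with their lowest Col-0 level at day 3, 0 were called lower in pif5 than in Col-0 at day 3. Of the 47 with the lowest level at day 1, 34 were (9.8% of all rows). These classes were set with the same Col-0 arrays that enter the comparison, so the counts are a description.

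The 27 rows with a called fall and no called recovery had median changes from light of -0.74, -0.98, -1.21 and -1.25 at days 1, 3, 6 and 12 in pif5, and of -0.59, -0.56 and -0.38 at days 1, 3 and 6 in Col-0. None of these 27 rows was lower than in light by 1 or more in Col-0 at day 1 or 3. Row 13389755 was at 8.27, 8.76 and 8.69 at day 1, 7.56, 8.17 and 8.33 at day 3, 7.60, 7.88 and 7.47 at day 6, with 7.76 and 7.16 at day 12 in pif5. In Col-0 it was at 8.98, 9.20 and 9.40 at day 1, 9.44, 9.66 and 9.51 at day 3, then 9.56, 9.50 and 9.73 at day 6. The levels in light were 9.57, 9.96 and 9.86 in pif5 and 9.73, 9.81 and 9.76 in Col-0, so at days 1, 3 and 6 every pif5 array lay below the Col-0 arrays of the same day.

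Among the 27 is row 13411954, which first rose sharply in both genotypes. It was at 7.81, 7.42 and 7.96 in pif5 and at 7.18, 7.45 and 6.97 in Col-0 at day 1, against 5.29, 4.61 and 5.23 in pif5 and 4.14, 5.03 and 4.77 in Col-0 in light. At day 3 it stood at 4.76, 4.57 and 4.54 in pif5 and at 3.89, 4.26 and 3.81 in Col-0. Between days 1 and 3 the log2 change was -3.1 in pif5 and -3.21 in Col-0 (limma adjusted p = 7.8e-10 and 3.7e-11), and the difference between these changes was 0.11 ± 0.32 (SE, limma adjusted p = 0.91).

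The 7 rows that rose in Col-0 without a called fall had median changes from light of 0.16, -0.32, -1.28 and -1.59 at days 1, 3, 6 and 12 in pif5, and of 0.69, 0.44 and 0.16 at days 1, 3 and 6 in Col-0. Row 13336755 was at 8.92, 8.74 and 8.77 in pif5 and at 9.05, 8.85 and 8.80 in Col-0 at day 1. In light it was at 7.79, 7.58 and 7.23 in pif5 and at 7.37, 7.63 and 7.55 in Col-0. It was at 7.29, 7.06 and 7.47 at day 3, 6.09, 6.48 and 6.18 at day 6, with 6.19 and 6.02 at day 12 in pif5, against 8.30, 7.91 and 8.16 at day 3, then 8.01, 7.78 and 8.10 at day 6 in Col-0. The genotypes overlapped at day 1 and were separate from day 3. Row 13440228 was at 10.40, 10.06 and 10.34 at day 1, 9.82, 10.04 and 9.98 at day 3, 9.06, 9.21 and 8.51 at day 6, with 7.71 and 8.25 at day 12 in pif5, against 10.87, 10.63 and 10.60, then 10.64, 10.53 and 10.63, then 9.94, 10.11 and 10.30 at days 1, 3 and 6 in Col-0. Its fall in pif5 was thus late, with most of it after day 3.

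Among the 25 rows with no Col-0 call at day 1 or 3, the medians of the change from light were -0.43, -0.88, -1.18 and -1.22 at days 1, 3, 6 and 12 in pif5, and -0.06, -0.18 and -0.04 at days 1, 3 and 6 in Col-0. In pif5 14 of the 25 were called lower than in light at day 1, against 3.06% of all rows with no Col-0 call. Row 13360505 was at 7.16, 7.04 and 7.03 in light, 6.18, 6.43 and 6.45 at day 1, 5.97, 5.83 and 6.20 at day 3, 5.57, 5.51 and 5.73 at day 6, with 5.49 and 5.21 at day 12 in pif5. In Col-0 it was at 6.73, 7.05 and 7.05 in light, 6.67, 6.64 and 6.89 at day 1, 7.13, 7.04 and 6.86 at day 3, then 6.96, 7.08 and 6.92 at day 6. The pif5 group means step down from day to day, and the Col-0 values stay within 6.64 to 7.13. The pif5 arrays of days 1 and 3 overlap. The pif5 changes from day 1 to 3 and from day 6 to 12 were not called (limma adjusted p = 0.090 and 0.71).

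**Figure D3:**
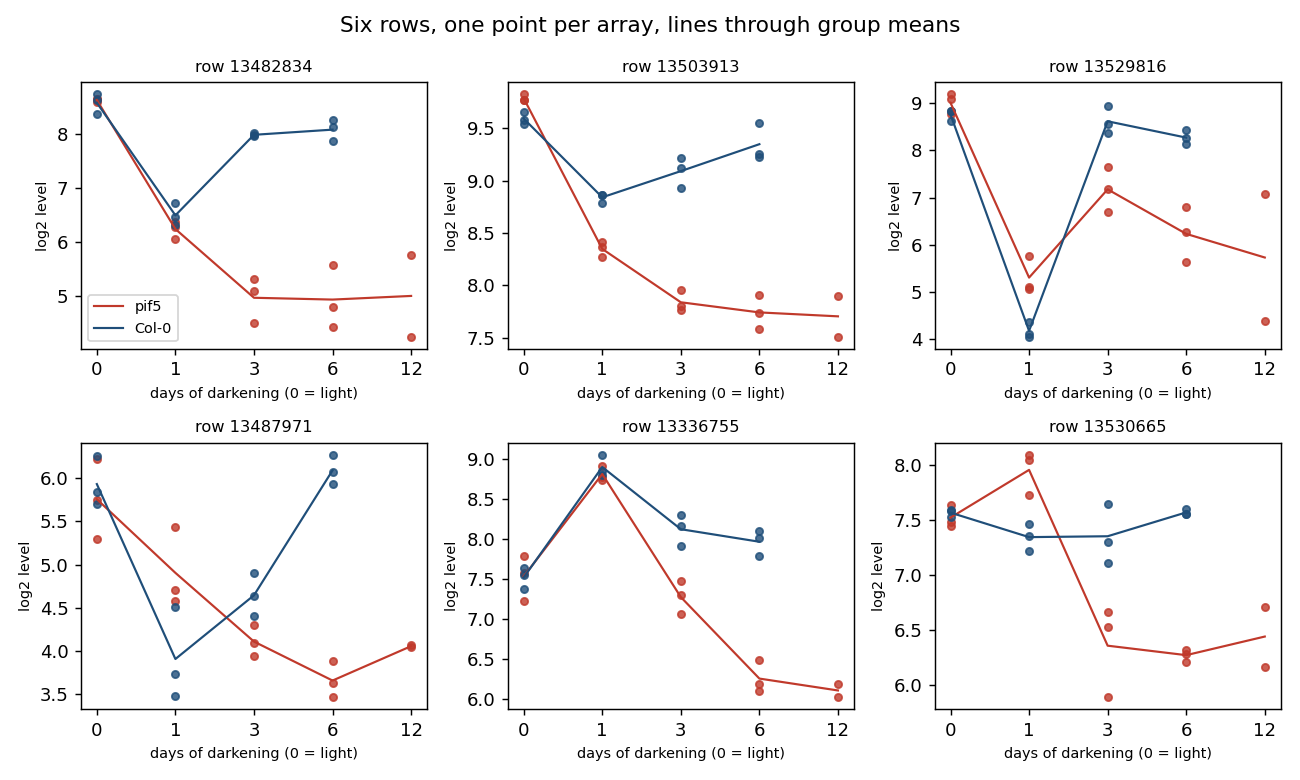
Log2 level (vertical axis, its range set per panel) of 6 rows against days of darkening at equal spacing (horizontal axis), with a point for each array and lines through the group means of pif5 (red) and Col-0 (blue). Row 13482834 stands at 4.96 in pif5 and 7.99 in Col-0 at day 3, row 13503913 at 7.84 in pif5 and 9.09 in Col-0, and row 13529816 shows the partial return in pif5 to 7.17 at day 3.

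After 3 dark days, on arrays that had no part in choosing the rows, pif5 leaves were lower than Col-0 leaves at many of the 126 rows. The limma fit called 64 of 126 lower in pif5, where 9.8% of all rows were called lower, and 2 higher, where 8.53% of all rows were called higher. The median difference was -0.42 over the 126 rows and -0.02 over all rows. A further 42 rows had a difference below 0 with no call. In 75 rows every pif5 array lay below every Col-0 array, against 16.4% of all rows. Of the 64 rows, 18 were lower by at least 1, against 482 of the 2613 rows called lower in the whole table. Among the 1659 rows that were lower by at least 1 at day 6 in both genotypes, by contrast, 4.34% were called lower and 35.6% higher in pif5, with a median difference of 0.27.

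The lowest adjusted p-values at day 3 after row 13482834 were those of rows 13503913 and 13542430. Row 13503913 was at 7.76, 7.80 and 7.95 in pif5, against 9.22, 8.93 and 9.12 in Col-0, a difference of -1.25 ± 0.12 (SE, limma adjusted p = 1.0e-08). Row 13542430 was at 7.61, 7.63 and 7.71 in pif5, against 8.93, 8.88 and 8.67 in Col-0 (-1.18 ± 0.12, SE, limma adjusted p = 7.0e-08). In Col-0 row 13542430 was back at its level in light, which was 8.66, 8.79 and 8.81, while in pif5 it was still as low as at day 1, with 7.65, 7.58 and 7.59 there. Row 13490185 was one of the 2 higher in pif5, at 7.45, 7.70 and 7.29 against 6.73, 6.63 and 6.93 in Col-0 (0.72 ± 0.13, SE, limma adjusted p = 0.00016). The other, row 13411954, had a difference of 0.64 ± 0.23 (SE, limma adjusted p = 0.049) that lost its call in several alternatives.

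After 1 dark day the genotypes differed at few of the rows. The fit called 11 of 126 lower in pif5, where 1.83% of all rows were, and 3 higher, where 1.57% were. The median difference was -0.04 over the 126 rows and close to 0 over all rows. In 25 rows every pif5 array lay below every Col-0 array, against 8.88% of all rows. Leaving out either replicate 1 or replicate 2 of pif5 day 1 gave 7 rows instead of 11. Leaving out Col-0 day 1 replicate 1 gave 6, and leaving out its replicate 2 gave 4. With the day 1 arrays fitted alone there were 7. In light, which the membership rule used, pif5 had the higher mean at 93 of the 126 rows, with a median difference of 0.10. The difference in light was called at 0 of the 126 rows and at 9 of all rows.

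Row 13492096 had the lowest adjusted p at day 1. It was at 6.02, 6.04 and 6.41 in pif5, against 7.01, 7.05 and 7.04 in Col-0, a difference of -0.88 ± 0.11 (SE, limma adjusted p = 1.4e-05). At day 3 it was at 6.06, 6.41 and 6.25 in pif5, against 7.21, 7.24 and 7.36 in Col-0. Row 13340110 was at 5.94, 5.92 and 6.51 in pif5, against 7.16, 6.79 and 7.08 in Col-0 at day 1 (-0.89 ± 0.16, SE, limma adjusted p = 0.0012). Row 13461464 was at 9.17, 8.64 and 9.11 in pif5, against 9.87, 9.54 and 9.46 in Col-0 (-0.65 ± 0.13, SE, limma adjusted p = 0.0037), a call lost when the day 1 arrays were fitted alone. Both were called lower again at day 3, as were 10 of the 11 in all. The matching share among all rows called lower at day 1 was not counted, so the 10 are a description. The exception is row 13519928.

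Of the 3 rows that were higher in pif5 at day 1, row 13450330 was at 5.23, 6.39 and 5.25 in pif5, against 3.87, 3.96 and 4.76 in Col-0 at day 1 (1.43 ± 0.26, SE, limma adjusted p = 0.0012), and at 3.45, 3.38 and 3.49 in pif5, against 3.82, 3.63 and 3.79 in Col-0 at day 3. Row 13487971 was at 4.57, 5.43 and 4.70 in pif5, against 3.73, 3.49 and 4.51 in Col-0 at day 1 (1.00 ± 0.23, SE, limma adjusted p = 0.012), a call lost when the day 1 arrays were fitted alone or when pif5 replicate 2, Col-0 replicate 1 or Col-0 replicate 2 of that day was left out. At day 6 it had 3.63, 3.89 and 3.47 in pif5, against 6.26, 6.06 and 5.94 in Col-0. The third, row 13530665, was 0.61 ± 0.16 higher in pif5 at day 1 (SE, limma adjusted p = 0.029) and is the only row of the 126 called higher at day 1 and lower at day 3.

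**Figure D4:**
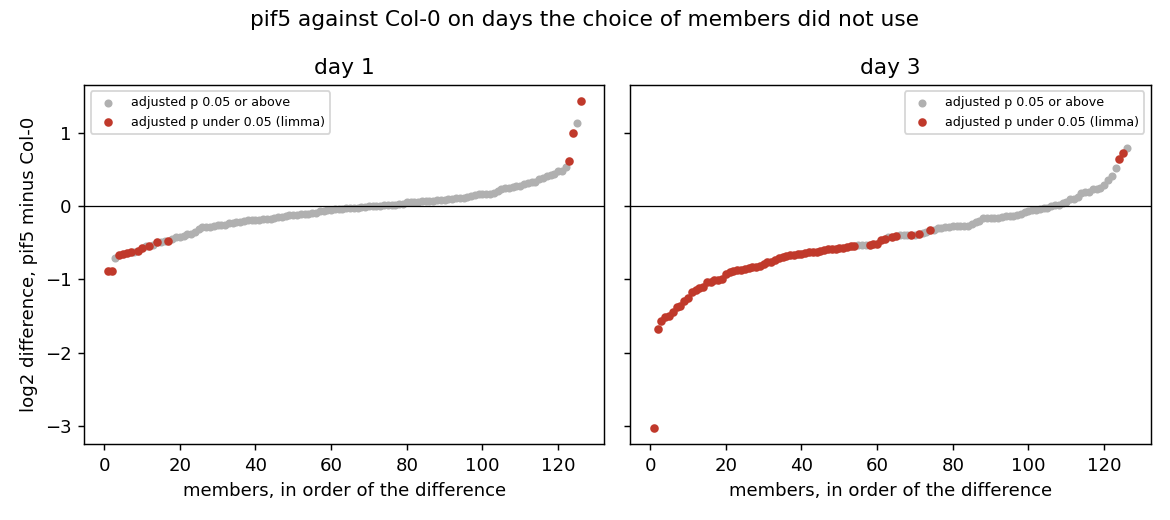
Log2 difference between pif5 and Col-0 (vertical axis, pif5 minus Col-0) of each of the 126 rows, in ascending order (horizontal axis), at day 1 on the left and day 3 on the right. Red points passed the limma test, 14 at day 1 and 66 at day 3; the day 3 points lie mostly below 0, down to -3.03.

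Between days 1 and 3 the change was more negative in pif5 than in Col-0 at 38 of the 126 rows. In pif5 29 of 126 were lower at day 3 than at day 1 (4.05% of all rows) and 1 was higher (3.16%), with a median change of -0.24. In Col-0 28 were higher (7.38% of all rows) and 17 lower (8.9%), with a median change of 0.15. Leaving out Col-0 day 1 replicate 1 reduced the 17 to 10, and leaving out Col-0 day 3 replicate 2 reduced it to 11. The difference between the changes was called at these 38 rows as more negative in pif5, against 3.57% of all rows, and at 1 row as more positive, against 3.9%. Its median was -0.39 over the 126 rows and -0.02 over all rows. Among the 38 rows, 32 had a mean change above 0 in Col-0 and below 0 in pif5. Leaving out pif5 day 3 replicate 1 reduced the 38 to 22. None of the arrays of days 1 and 3 were used in choosing the rows.

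By the calls within each genotype, 64 of the 126 rows had no call in either (79.8% of all rows) and 8 were lower in both (1.87%). In 23 rows the rise was called in Col-0 and no change was called in pif5 (6.09% of all rows). Row 13414623 was at 6.93, 6.98 and 6.72 at day 3 after 6.64, 6.02 and 6.69 at day 1 in pif5, and at 7.65, 7.51 and 7.52 after 6.33, 6.15 and 5.88 in Col-0. Its change was 0.43 ± 0.17 in pif5 (SE, limma adjusted p = 0.14) and 1.44 ± 0.17 in Col-0 (SE, limma adjusted p = 3.0e-07), and the difference between them was called (limma adjusted p = 0.0069). In 17 rows the fall was called in pif5 and no change was called in Col-0 (2% of all rows). Row 13530665 was at 5.88, 6.52 and 6.66 at day 3 after 8.09, 8.05 and 7.73 at day 1 in pif5, and at 7.30, 7.65 and 7.11 after 7.22, 7.35 and 7.46 in Col-0. Here the difference between the changes was -1.61 ± 0.23 (SE, limma adjusted p = 3.7e-05). In 4 rows a fall was called in pif5 and a rise in Col-0 (0.18% of all rows), among them row 13337025, which was at 8.43, 8.54 and 8.47 after 9.41, 8.65 and 9.16 in pif5, and at 10.22, 9.82 and 10.10 after 9.20, 8.82 and 8.48 in Col-0 (difference -1.81 ± 0.26, SE, limma adjusted p = 3.9e-05).

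Row 13519928 was the only one of the 126 called with a more positive change in pif5. It was at 6.47, 7.07 and 6.56 at day 3 after 6.37, 5.95 and 6.21 at day 1 in pif5, and at 6.39, 6.35 and 6.64 after 6.84, 6.80 and 6.90 in Col-0. At day 6 it had 6.28, 6.33 and 6.31 in pif5, against 8.10, 7.95 and 8.10 in Col-0. The call (0.91 ± 0.25, SE, limma adjusted p = 0.024) was lost when pif5 day 1 replicate 2, pif5 day 3 replicate 2, Col-0 day 3 replicate 1 or Col-0 day 3 replicate 2 was left out.

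**Figure D5:**
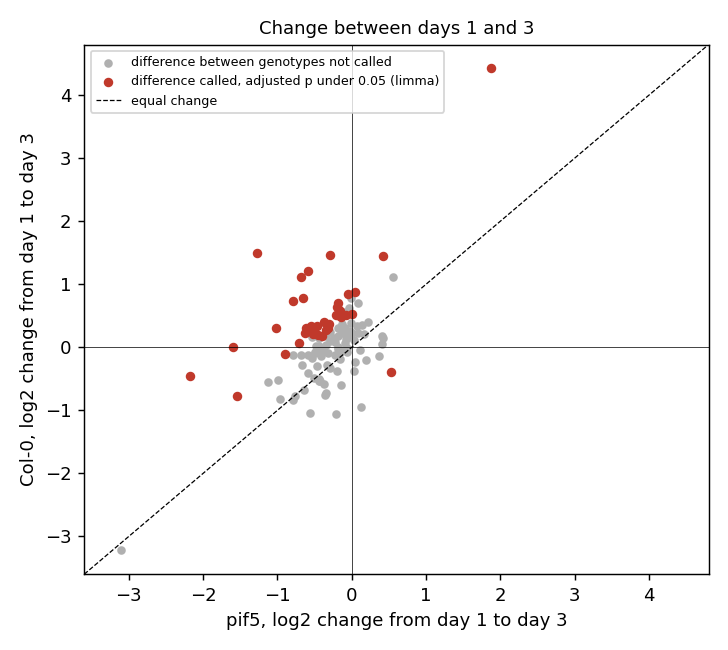
Log2 change from day 1 to day 3 in pif5 (horizontal axis) and in Col-0 (vertical axis), with a point for each of the 126 rows. Red points are the 39 rows at which the limma test of the difference between the genotypes passed, and the dashed line marks equal change; 38 of the red points lie above it and row 13519928 below.

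In pif5 the low levels were also present at day 12. Against day 1, neither of which entered the choice of rows, 68 of 126 rows were lower at day 12 (13.2% of all rows) and 1 was higher (8.73%), with a median change of -0.50 and of -0.07 over all rows. In 88 rows both day 12 arrays lay below all day 1 arrays, against 28.4% of all rows. Against day 3, 27 rows were lower (5.72% of all rows) and 2 higher (4.58%), with a median change of -0.29. Leaving out pif5 day 12 replicate 2 reduced the 27 to 12. With arrays centred on their medians the split was 19 lower and 4 higher. Array medians were lower at day 12 than in light, at 4.21 and 4.20 in pif5 day 12 arrays, against 4.32, 4.33 and 4.32 in pif5 in light.

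Row 13336755 had the lowest adjusted p for day 12 against day 1, with a change of -2.71 ± 0.16 (SE, limma adjusted p = 3.5e-12), and row 13440228 had a change of -2.29 ± 0.19 (SE, limma adjusted p = 8.4e-10). Row 13411954 had a change of -3.41 ± 0.25 (SE, limma adjusted p = 1.6e-10) from its day 1 peak. Row 13494383 was among the 3 with the lowest adjusted p against day 3. Its pif5 levels were 8.77, 8.59 and 8.76 in light, 7.91, 8.30 and 7.96 at day 1, 7.53, 7.76 and 7.79 at day 3, 7.02, 7.23 and 7.09 at day 6, with 6.37 and 6.79 at day 12, lower at each day than the day before. Its Col-0 levels were 9.11, 8.53 and 8.85 in light, 8.27, 8.26 and 8.01 at day 1, 8.63, 8.35 and 8.76 at day 3, then 8.62, 8.68 and 8.63 at day 6.

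A few rows went up again in pif5. Row 13486546 was at 6.45 and 6.27 at day 12 after 5.65, 5.36 and 5.58 at day 1, a rise of 0.83 ± 0.20 (SE, limma adjusted p = 0.0031) that was not called without day 12 replicate 1 (limma adjusted p = 0.054). Rows 13346856 and 13500637 were higher at day 12 than at day 3, by 0.50 ± 0.13 and 0.78 ± 0.22 (SE, limma adjusted p = 0.0098 and 0.021), and both calls were lost when either day 12 array was left out and in a fit over only the groups compared. Between days 6 and 12 the median change was -0.04 and ran from -0.95 in row 13440228 to 0.52 in row 13411954. The day 6 arrays helped to choose the rows, so these last values are a description.

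The pace of the fall in pif5 varied. The median row had reached 66.1% of its day 6 change at day 1 (quartiles 40.4% and 82.8%) and 81.9% at day 3 (quartiles 70.7% and 94.2%). At least 80% was reached at day 1 in 37 rows and at day 3 in 70 rows, and 14 rows had reached under 20% at day 1. Of the 126 rows, 116 had a mean below light at day 1 and all 126 at days 3 and 12. Since the shares are of the day 6 change, which chose the rows, they are a description. At 43 rows pif5 was called both lower than Col-0 at day 3 and lower at day 12 than at day 1 (3.42% of all rows). At 90 rows pif5 was called lower than Col-0 at day 1 or 3, or lower at day 12 than at day 1 (20.4% of all rows), and at the other 36 by none of these.

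The 126 rows ran largely in parallel over the arrays. Their mean pairwise correlation over the 26 arrays was 0.65, and 98.7% of pairs had a correlation above 0. All rows were chosen for the same day 6 pattern and share the arrays, so this is a description. After subtracting group means it was 0.046. Values in Col-0 light ran from 3.97 in row 13360951 to 11.42 in row 13368981 with a median of 6.92, and 122 of the 126 lay above the median of all rows. Probe sets differ in how they respond to the same amount of RNA, so these values bear on signal and not on the order of transcript levels. Row 13368981 was at 10.28, 10.37 and 10.46 at day 1, 10.03, 10.37 and 10.30 at day 3, 9.91, 10.11 and 9.88 at day 6, with 9.71 and 9.46 at day 12 in pif5, against 10.44, 10.57 and 10.62, then 11.02, 10.96 and 11.10, then 10.88, 11.01 and 11.00 at days 1, 3 and 6 in Col-0. Row 13360951 was at 4.49, 4.72 and 4.84 in light and 3.14, 3.65 and 3.72 at day 6 in pif5, against 4.08, 3.60 and 4.22 in light and 4.0, 3.89 and 3.90 at day 6 in Col-0, a change close to the lower end of the measured range. The spread within groups was slightly larger in these rows than in all rows, with median SDs per group of 0.14 to 0.18 against 0.11 to 0.15.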

How the data were processed

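The deposited table holds the authors' log2 values for 26676 probe sets on 26 single-colour arrays. Per the submitters' processing notes the arrays were handled with oligo, and biotinylated cRNA was used per the labels. The settings behind background and scale, and any array batches, are left unstated by these sources. Groups and replicate numbers were taken from the sample titles.

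The values were used as deposited. All 9 groups entered 1 fit of limma 3.58.1 (lmFit and eBayes, under R 4.3.3), which left 17 residual degrees of freedom. The Benjamini-Hochberg adjustment ran over the whole table, with a threshold of 0.05. Calls were run on simulated arrays with known changes, and the outcome is not given here. Those arrays had independent noise around each row's mean over all arrays and no other effect of day or genotype. They therefore do not show how the calls behave where many rows change by day. The members, the tests and the rule for cited rows were chosen with earlier results of these data known. A planned check of the gene names on ribosomal proteins had no rows to use, and rows named for photosystem proteins were used instead. Rows to cite were the 10 with the lowest difference between the genotypes' day 6 changes, up to 3 called lower and 2 called higher per test by adjusted p, 3 per Col-0 course, the 3 deepest early falls in Col-0, and the 3 highest and 3 lowest in Col-0 light level and in the change after day 6. These are 40 rows, of which those the results turn on are given with their values. Because fewer than 200 rows met the membership limits, the rows nearest to each limit are given instead of those around the 200th. Alternatives were quantile normalization, median centring, a filter on low rows, smaller fits, a replicate block, a trended prior and leaving out each array. The number of arrays limits the precision.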

Additional observations from a re-analysis of the deposited data

Results flagged for a closer look

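The change from day 1 to day 3 differed between the genotypes (tested as an interaction with limma) at 38 of the 126 rows as more negative in pif5 and at 1 row as more positive. The rows with the lowest adjusted p were 13482834, with a difference of -2.77, 13530665 with -1.61 and 13337025 with -1.81, and the row in the other direction, 13519928, had a difference of 0.91 on the log2 scale. Groups of 3 arrays were too small to look for single arrays that stood apart.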

How the results depend on the processing

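Counts below are of the 126 rows. No cited row changed direction in its test under any alternative, and 993 of 1024 alternative values kept their call. Rows called lower in pif5 than in Col-0 at day 1 fell to 7 in a fit over only the groups compared. With 1 array left out, that count ran from 4 to 12 against 11, the day 3 count from 56 to 66 against 64, the more negative day 1 to day 3 change in pif5 from 22 to 40 against 38, day 12 against day 3 from 12 to 29 against 27, and day 12 against day 1 from 49 to 69 against 68. The cause was not tested. From day 1 to day 3, rows lower in pif5 ran from 22 to 31 against 29, rows higher in Col-0 from 23 to 30 against 28, and rows lower in Col-0 from 10 to 17 against 17. Counts of 1 to 3 in the less frequent direction ran from 0 to 5. The counts of the 4 Col-0 courses stayed within 1.5 times, and the rows that fell and recovered in Col-0 numbered 59 to 69 with 1 array left out, 62 with quantile normalization and 76 with median centring. Of 100 same-numbered pairs of arrays, 13 had deviations correlated above 0.1 (range -0.17 to 0.19). Whether the replicate numbers pair the arrays was not tested against pairs with different numbers. The replicate block gave 12 rows lower in pif5 at day 1, 66 at day 3, 41 with the more negative change and 65 that fell and recovered in Col-0, and moved no count above 3 by over 1.5 times, while rows higher in pif5 at day 3 and at day 12 than at day 1 each numbered 2 against 1.

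Which rows qualify depends on the scaling. The rule found 96 rows with quantile normalization, 79 of them among the 126, and 112 with median centring, 95 of them among the 126. It found 114 to 143 with 1 array left out, with at least 107 of the 126. A Col-0 limit of 0.25 left 58 rows. Limma calls in place of means (the pif5 day 6 fall and the day 6 difference in response) gave 822 rows, 117 of them among the 126. Those calls set no limit on the size of the pif5 or the Col-0 change. Day 12 rests on 2 arrays.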

Other observations

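At 2 of the 126 rows the 2 pif5 day 12 arrays differed by over 1 on the log2 scale, against a median difference of 0.23. Row 13482834 stood at 5.75 and 4.24, and row 13529816 at 4.38 and 7.08. These are the 2 rows with the largest gap between the genotypes' day 6 changes. Only 2 pairs of the 126 rows are neighbours in the order of identifiers. Rows 13342695 and 13342700 had a correlation of 0.70 over the 26 arrays, and rows 13484108 and 13484116 one of 0.62. Rows 13484108 and 13484116 took different courses in Col-0. Row 13484108 was called higher at day 1 than in light, at 7.75, 7.40 and 7.95 against 7.31, 6.30 and 6.71, and row 13484116 was called lower, at 6.20, 6.40 and 6.49 against 7.06, 6.95 and 6.97.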
